A study of Mus musculus with 11 samples.

Results

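The 9 genes described here make, break down and regulate polyamines: the ornithine decarboxylase gene Odc1, the S-adenosylmethionine decarboxylase gene Amd1, the synthase genes Srm and Sms, the breakdown genes Sat1 and Smox, and the regulators Oaz1, Oaz2 and Azin1. They were taken by symbol from a table of 23444 gene rows, and all 9 passed the filter for the test, which asked for at least 1 FPKM in at least 2 libraries. FPKM is a read level scaled to transcript length and sequencing depth. RNA of Kit+ bone marrow cells from C57BL/6 mice was sequenced in 11 libraries of 7 groups. The study's stated aim was to see if drugs against FOS and Dusp1 give what loss of both genes gives in cells with BCR/ABL, a fusion kinase that drives chronic myeloid leukaemia.

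All libraries came from cells selected with CD117 beads and kept overnight in medium with the cytokines FLT3, mSCF, IL-3 and IL-6. The groups with 2 libraries each were wild-type BCR/ABL cells given imatinib+DFC+BCI (called all 3 drugs below), DFC+BCI, imatinib alone, or no drug. Imatinib inhibits the BCR/ABL kinase, and DFC and BCI, always given together, are the study's inhibitors of FOS and Dusp1. Drug treatment lasted 4 h in cells sorted for the yellow fluorescent marker carried with BCR/ABL. The groups with 1 library each were BCR/ABL cells labelled c-Fos-/-Dusp1-/- with imatinib, such cells without a drug, and a vector control, so comparisons with these have no replicate check. The mice behind the labelled deletion were ROSACreERT2c-Fosfl/flDusp1-/-, which carry a drug-inducible Cre, floxed c-Fos and no Dusp1. When Cre was switched on, whether the wild-type cells carried it, and how the vector cells were made are not given in the sources used here. No group is labelled as given vehicle alone, and the labels do not say that the 2 libraries of a group came from different animals, so p-values may measure technical spread. The letters a and b below name the 2 libraries of a group.

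Polyamines are small, positively charged molecules that bind RNA and DNA and that growing cells need. Odc1 turns ornithine into putrescine, and spermidine synthase (Srm) and spermine synthase (Sms) then add aminopropyl groups supplied by the Amd1 product. Sat1 acetylates spermidine and spermine for breakdown or export, and Smox oxidises spermine back to spermidine. Antizymes (Oaz1, Oaz2) are made when polyamines are plentiful and send the Odc1 protein to the proteasome, while the antizyme inhibitor Azin1 binds antizyme and spares Odc1 protein. Odc1 is a classic target of the MYC transcription factor, and much control of Odc1, Amd1, Sat1 and the antizymes acts on translation and protein stability, which RNA levels do not show.

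The libraries summed to 459559 to 529427 FPKM, and replicates correlated at 0.986 to 0.990 across genes. Read depth is unknown, since no read counts are listed. Fos and Dusp1 did not show the labelled loss: Fos stood at 15.9 and 21.6 FPKM in the imatinib-treated and untreated libraries labelled deleted, against 5.09 and 4.81 FPKM in untreated wild-type BCR/ABL cells, and Dusp1 at 28.1 and 35.7 FPKM against 8.22 and 8.46 FPKM. Each direction given for these libraries is therefore that of a library labelled deleted. Fos and Dusp1 RNA also rose with DFC+BCI against untreated cells, by 2.38 and 3.77 on the log2 scale (limma adjusted p = 6.5e-06 and 2.63e-06). RNA levels do not show whether either protein was inhibited. Kit, the receptor the cells were selected by, was at 7.28 to 7.55 FPKM with all 3 drugs, 6.66 to 6.91 FPKM with DFC+BCI, 12.0 to 12.4 FPKM with imatinib, 8.30 and 5.80 FPKM in the imatinib-treated and untreated libraries labelled deleted, 11.5 to 11.7 FPKM in untreated cells and 34.5 FPKM in the vector control. B cell, T cell and stromal marker lists each summed to at most 14.2 FPKM in any library, and 0 of 5 T cell genes reached 1 FPKM. Fewer cells of a type and less RNA per cell cannot be told apart in such bulk samples.

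Against untreated cells, DFC+BCI alone and all 3 drugs each raised the RNA of Azin1, Sat1 and Smox and lowered that of Sms, while Odc1 and Srm did not pass the test. Against imatinib alone, all 3 drugs raised Azin1, Smox and Odc1 and lowered Sms, and Sat1 did not pass. Imatinib alone moved none of the 9 genes past the test. Untreated BCR/ABL cells had 4.27-fold more Odc1 RNA and 2.78-fold more Srm RNA than the vector library. The libraries labelled deleted had more Azin1, Sat1 and Smox RNA and less Odc1 and Srm RNA than wild-type BCR/ABL cells with the same treatment, with no replicate to test it.

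**Figure D1:**
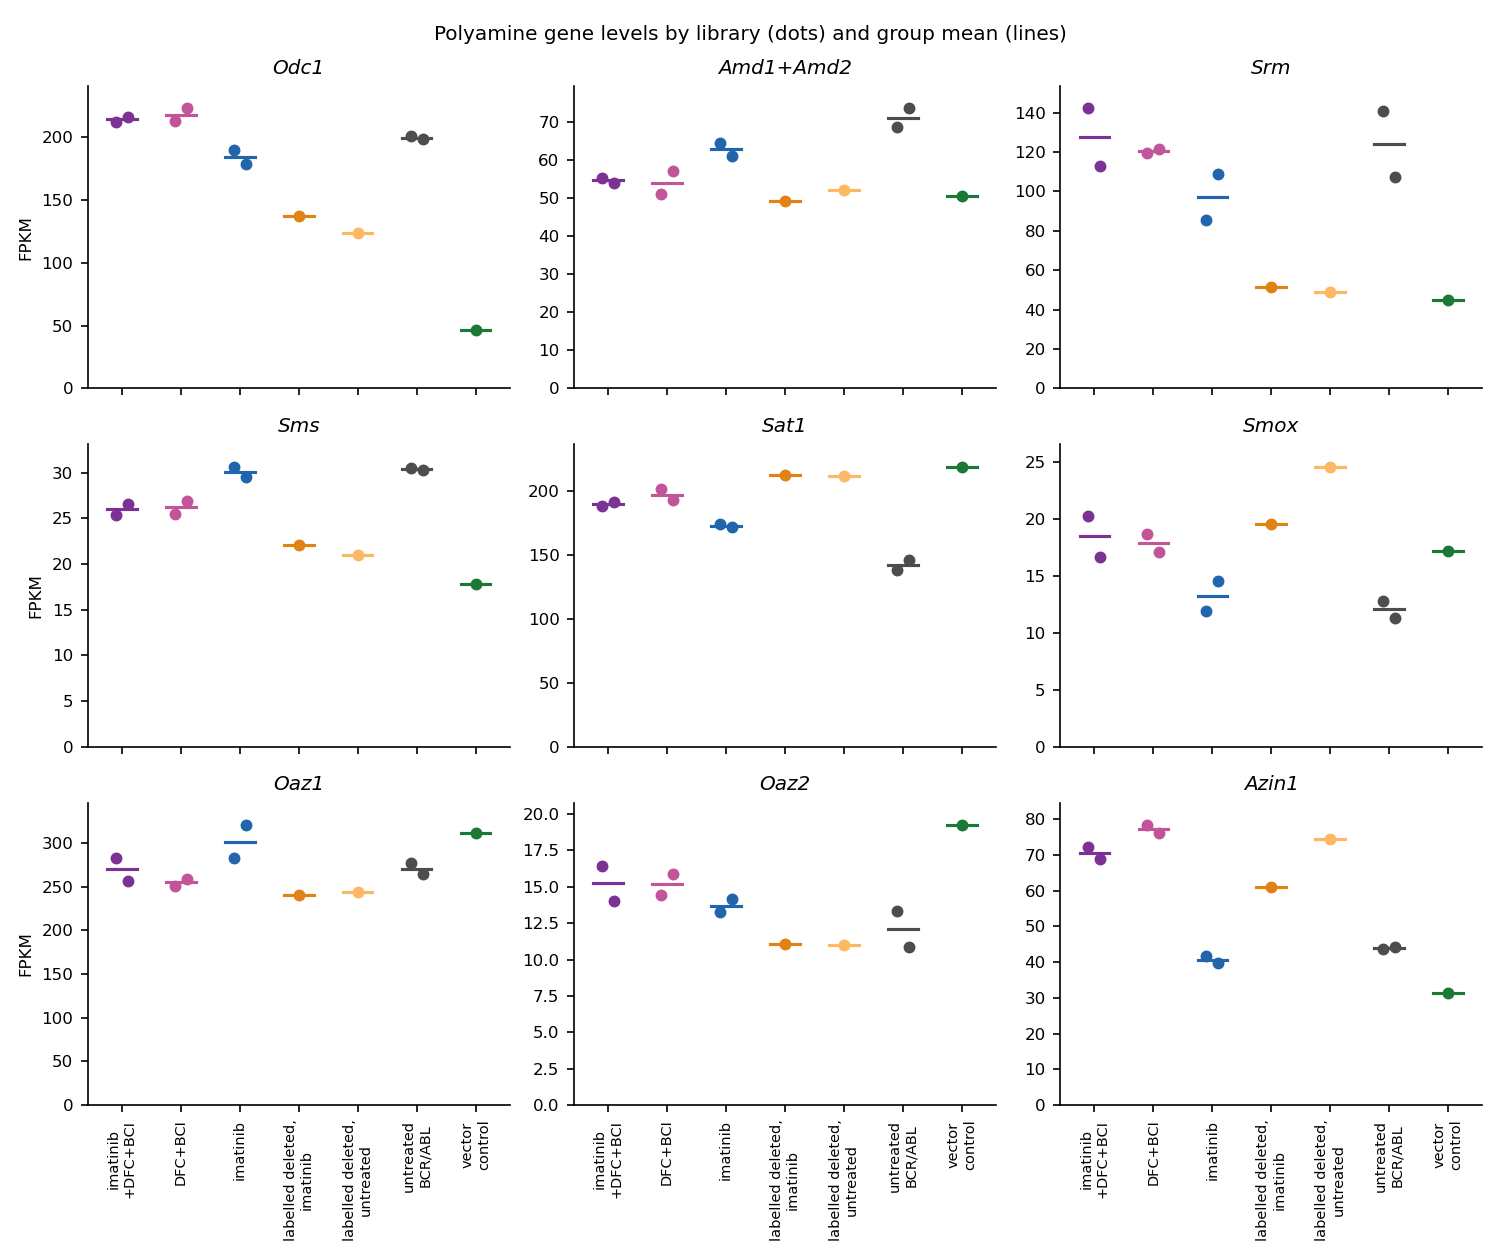
Level in FPKM (vertical axes, from 0) of each polyamine gene in the 11 libraries (dots) of the 7 groups (horizontal axes), with group means as lines and Amd1 and its copy Amd2 summed. Azin1 lies at 68.7 to 78.3 FPKM in the 4 libraries with DFC+BCI and at 43.8 and 44.3 FPKM in untreated cells, and Odc1 is lowest in the vector library, at 46.7 FPKM.

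Odc1 (chromosome 12, 17544808 to 17551502, plus strand) encodes the first enzyme of the pathway. Gene positions are on GRCm38 throughout, with starts and ends from RefSeq and strands from GENCODE vM21. It stood at 212 and 216 FPKM with all 3 drugs, 213 and 223 FPKM with DFC+BCI, 190.1 and 178 FPKM with imatinib, and 201 and 198 FPKM in untreated cells. With imatinib and untreated, the libraries labelled deleted had 137 and 124 FPKM, and the vector library had 46.7 FPKM. The order of the groups is thus DFC+BCI and all 3 drugs at the top with overlapping libraries, then untreated, imatinib, the libraries labelled deleted, and the vector control far below. Against imatinib alone, all 3 drugs raised Odc1 by 0.22 on the log2 scale (SE 0.0590; limma adjusted p = 0.0267), a call that was lost without either all-3-drugs library or without imatinib library b (adjusted p = 0.0908 to 0.127), under upper quartile scaling (adjusted p = 0.0641) and when only those groups were fitted (adjusted p = 0.0683). Against untreated cells the log2 fold changes of Odc1 were 0.13 with DFC+BCI (adjusted p = 0.137), 0.10 with all 3 drugs (adjusted p = 0.227) and -0.11 with imatinib (adjusted p = 0.450), each with SE 0.0590 from limma. After quantile normalization the first 2 of these passed (0.34, adjusted p = 0.00655 with DFC+BCI and 0.26, adjusted p = 0.02 with all 3 drugs).

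Srm (chromosome 4, 148591513 to 148594619, plus strand) makes spermidine from putrescine. Its libraries spread more than those of Odc1: 142 and 113 FPKM with all 3 drugs, 119.7 and 121 FPKM with DFC+BCI, 85.6 and 109 FPKM with imatinib, and 141 and 107 FPKM in untreated cells. The libraries labelled deleted stood at 51.4 FPKM with imatinib and 48.9 FPKM untreated, next to 44.7 FPKM in the vector control. These 3 lone libraries lie below every other library, whereas the 4 replicated groups overlap, except that all 3 drugs and DFC+BCI lie above imatinib. No test of Srm passed, with log2 fold changes of -0.34 (imatinib, adjusted p = 0.423), -0.03 (DFC+BCI, adjusted p = 0.917) and 0.04 (all 3 drugs, adjusted p = 0.867) against untreated cells and 0.39 (adjusted p = 0.119) for all 3 drugs against imatinib, each with SE 0.169 from limma.

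Sms (X chromosome, 157443851 to 157492287, minus strand) makes spermine from spermidine. It was at 25.4 and 26.6 FPKM with all 3 drugs, 25.5 and 26.9 FPKM with DFC+BCI, 30.7 and 29.5 FPKM with imatinib, and 30.5 and 30.3 FPKM in untreated cells. The libraries labelled deleted had 22.1 FPKM with imatinib and 20.9 FPKM untreated and the vector library had 17.8 FPKM. The 4 libraries with DFC+BCI lie below the 4 without it in wild-type BCR/ABL cells. The fall was small: -0.21 on the log2 scale with DFC+BCI against untreated cells (limma adjusted p = 0.0300), -0.22 with all 3 drugs against untreated cells (limma adjusted p = 0.0275) and -0.20 with all 3 drugs against imatinib (limma adjusted p = 0.0345), each with SE 0.0592. In each comparison the call was lost when any library of the 2 groups was left out (adjusted p = 0.0688 to 0.179) and when only those groups were fitted (adjusted p = 0.0703 to 0.0812). The direction was kept in all of these fits.

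Amd1 (chromosome 10, 40287458 to 40302188, minus strand) cannot be read alone, because the table also lists Amd2 (chromosome 10, 35708691 to 35711891, minus strand), a near-identical copy. Their annotated transcripts match at 3190 of 3204 aligned bases (99.6%), and 86.1% of the 50-base stretches of Amd1 also occur in Amd2. The start sites are shown because they carry the identity to its edge: each line gives 30 bases before to 30 bases after the start site, 5′ to 3′ (RefSeq sequence, GRCm38.p6, minus strand, chr10:40302159-40302218 for Amd1 and chr10:35711862-35711921 for Amd2), with the longest shared run, of 28 bases, in capitals.
Amd1: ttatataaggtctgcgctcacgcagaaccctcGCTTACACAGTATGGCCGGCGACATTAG
Amd2: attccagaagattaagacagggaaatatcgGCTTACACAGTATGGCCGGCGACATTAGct
The bases before the shared run differ, so the 2 copies have unlike promoter sequence and like transcripts.

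The Amd1 row was above 1 FPKM in 3 libraries: 25.1 and 2.71 FPKM in DFC+BCI libraries a and b, and 9.35 FPKM in untreated library b. In the other 8 libraries it was at most 0.113 FPKM, and untreated library a had 0.00994 FPKM. Where the Amd1 row was highest, the Amd2 row was lowest, at 25.8 FPKM in DFC+BCI library a against 54.4 FPKM in library b. No test of the Amd1 row passed (limma adjusted p = 0.320 to 0.975 in the 4 comparisons with untreated or imatinib-treated cells). Without untreated library b, which held most of that group's Amd1 row, the value with DFC+BCI passed at 3.28 on the log2 scale (limma adjusted p = 0.0481), in place of 1.61 with all libraries. The sum of both rows, an alternative chosen after the data were seen, was 55.3 and 54.0 FPKM with all 3 drugs, 50.9 and 57.1 FPKM with DFC+BCI, 64.5 and 61.0 FPKM with imatinib and 68.6 and 73.5 FPKM in untreated cells. The libraries labelled deleted summed to 49.2 FPKM with imatinib and 52.1 FPKM untreated, and the vector library to 50.5 FPKM. The sum was highest in untreated cells, and there it lay above all other groups without overlap. Against untreated cells it fell by 0.39 on the log2 scale with DFC+BCI (SE 0.0740; limma adjusted p = 0.00630, and 0.0508 without DFC+BCI library a) and by 0.37 with all 3 drugs (SE 0.0740; limma adjusted p = 0.00850, and 0.0528 without all-3-drugs library b). With imatinib alone the value was -0.18 (SE 0.0740; limma adjusted p = 0.324).

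**Figure D2:**
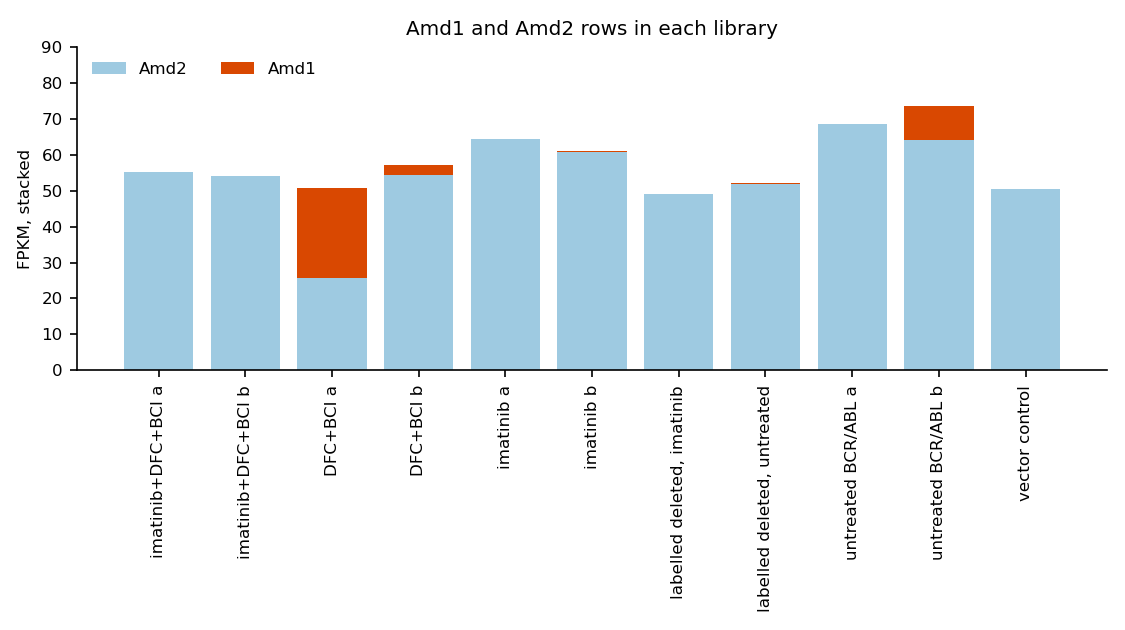
FPKM of the Amd2 row (blue) and the Amd1 row (orange), stacked from 0, in each of the 11 libraries. The Amd1 row is visible in 3 libraries, at 25.1, 2.71 and 9.35 FPKM, while the sum of both rows stays between 49.2 and 73.5 FPKM.

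Sat1 (X chromosome, 155213126 to 155216449, minus strand) encodes the acetyltransferase that starts breakdown and export. It had 189 and 191 FPKM with all 3 drugs, 202 and 193 FPKM with DFC+BCI, 174 and 172 FPKM with imatinib, and 138 and 146 FPKM in untreated cells. With imatinib and untreated, the libraries labelled deleted had 213 and 212 FPKM, and the vector library had 219 FPKM. Untreated BCR/ABL cells were thus the lowest group, and no library of another group reached down to them. Sat1 rose by 0.47 on the log2 scale with DFC+BCI (SE 0.0580; limma adjusted p = 0.00106) and by 0.42 with all 3 drugs (SE 0.0580; limma adjusted p = 0.00190) against untreated cells, and these calls held in 14 of 14 alternatives each. Imatinib gave 0.28 (SE 0.0580; limma adjusted p = 0.0635), short of the threshold, with both libraries above both untreated ones. All 3 drugs against imatinib gave 0.13 (SE 0.0580; limma adjusted p = 0.116), which passed only after quantile normalization (0.24, adjusted p = 0.0457). The interaction, which asks if imatinib changed Sat1 by another amount when DFC+BCI was present, was -0.34 (SE 0.0821; limma adjusted p = 0.179).

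Smox (chromosome 2, 131491858 to 131525183, plus strand) encodes spermine oxidase. It had 20.3 and 16.7 FPKM with all 3 drugs, 18.7 and 17.2 FPKM with DFC+BCI, 11.9 and 14.5 FPKM with imatinib, and 12.8 and 11.3 FPKM in untreated cells. The imatinib-treated and untreated libraries labelled deleted had 19.5 and 24.6 FPKM, and the vector library had 17.2 FPKM. The 4 libraries with DFC+BCI lie above the 4 wild-type BCR/ABL libraries without it, which overlap among themselves. Smox rose by 0.54 on the log2 scale with DFC+BCI (SE 0.125; limma adjusted p = 0.0146) and by 0.58 with all 3 drugs (SE 0.125; limma adjusted p = 0.0122) against untreated cells, and by 0.46 with all 3 drugs against imatinib (SE 0.125; limma adjusted p = 0.0277). Single libraries decided these calls: the first was lost without DFC+BCI library a (adjusted p = 0.0957) or untreated library b (adjusted p = 0.0668), the second without all-3-drugs library a (adjusted p = 0.0693) or untreated library b (adjusted p = 0.0620), and the third without all-3-drugs library a (adjusted p = 0.144) or imatinib library a (adjusted p = 0.143). The third was also lost with no filter (adjusted p = 0.0697) and when only those groups were fitted (adjusted p = 0.0639).

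Azin1 (chromosome 15, 38487430 to 38519294, minus strand), the antizyme inhibitor, had the largest changes past the test among the 9 genes. It stood at 72.3 and 68.7 FPKM with all 3 drugs, 78.3 and 76.2 FPKM with DFC+BCI, 41.6 and 39.8 FPKM with imatinib, and 43.8 and 44.3 FPKM in untreated cells. With imatinib and untreated, the libraries labelled deleted had 61.1 and 74.3 FPKM and the vector library had 31.2 FPKM. Among wild-type cells the DFC+BCI libraries lie highest, then those with all 3 drugs, while imatinib and untreated libraries lie close together well below, without overlap. Azin1 rose by 0.80 on the log2 scale with DFC+BCI (1.74-fold; SE 0.0568; limma adjusted p = 9.73e-05) and by 0.67 with all 3 drugs (1.59-fold; SE 0.0568; limma adjusted p = 0.000213) against untreated cells. With all 3 drugs against imatinib it rose by 0.78 (1.72-fold; SE 0.0568; limma adjusted p = 0.000111). Each of these 3 calls held in 14 of 14 alternatives. Imatinib alone gave -0.11 (SE 0.0568; limma adjusted p = 0.438).

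The antizyme genes changed little. Antizyme is made only when ribosomes shift frame at a stop codon early in the message, and that stretch is shown because Oaz1 and Oaz2 share it almost letter for letter. Each line gives 30 bases of the annotated transcript, 5′ to 3′ (GENCODE vM21, Oaz1-205 and Oaz2-203), with the stop codon of the first frame in capitals.
Oaz1: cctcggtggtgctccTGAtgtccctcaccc
Oaz2: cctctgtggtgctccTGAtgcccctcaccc
RNA levels do not measure how often ribosomes shift frame there.

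Oaz1 (chromosome 10, 80826656 to 80829290, plus strand) had the highest FPKM of the 9 genes in every library. It stood at 283 and 256 FPKM with all 3 drugs, 251 and 259.5 FPKM with DFC+BCI, 283 and 321 FPKM with imatinib, and 278 and 264 FPKM in untreated cells. The libraries labelled deleted had 241 FPKM with imatinib and 245 FPKM untreated, and the vector library 312 FPKM. The largest Oaz1 value was 1.33 times the smallest, the narrowest range among the members. No test passed for Oaz1, with log2 fold changes of 0.15 (imatinib, adjusted p = 0.480), -0.08 (DFC+BCI, adjusted p = 0.466) and -0.01 (all 3 drugs, adjusted p = 0.961) against untreated cells, each with SE 0.0833 from limma. The table also lists the pseudogene Oaz1-ps, at 35.1 to 93.7 FPKM and at 84.7 and 37.1 FPKM in untreated libraries a and b, so reads of Oaz1 may have been divided with it. Oaz2 (chromosome 9, 65676548 to 65690300, plus strand) had 16.4 and 14.0 FPKM with all 3 drugs, 14.4 and 15.9 FPKM with DFC+BCI, 13.3 and 14.1 FPKM with imatinib, 11.04 and 11.01 FPKM in the imatinib-treated and untreated libraries labelled deleted, 13.4 and 10.8 FPKM in untreated cells and 19.2 FPKM in the vector library. Its log2 fold change against untreated cells was 0.31 with DFC+BCI (SE 0.115; limma adjusted p = 0.0746) and 0.31 with all 3 drugs (SE 0.115; limma adjusted p = 0.0772). Both missed the threshold and passed under upper quartile scaling (adjusted p = 0.0346 and 0.0391) and without untreated library a (adjusted p = 0.0336 and 0.0340).

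Counted over the 9 genes, DFC+BCI raised 3 (Azin1, Sat1, Smox) and lowered 1 (Sms) against untreated cells, where 36.3% of all 11442 genes tested passed (17.8% higher and 18.4% lower). All 3 drugs also raised Azin1, Sat1 and Smox and lowered Sms, with 32.8% of all genes passing (17.2% higher and 15.6% lower). Against imatinib, all 3 drugs raised Azin1, Smox and Odc1 and lowered Sms, with 34.6% of all genes passing (18.6% higher and 16.0% lower). A share of 4 in 9 is near these backgrounds. Which direction held more of all genes turned with the scaling: with DFC+BCI 2041 were higher and 2107 lower, but 2078 and 1952 under upper quartile scaling; with all 3 drugs 1964 and 1790, but 1677 and 1921 after quantile normalization. Against imatinib, all 3 drugs gave 2127 higher and 1828 lower, but 1829 and 2187 after quantile normalization and 1976 and 2072 under upper quartile scaling. Both comparisons with untreated cells use the same 2 untreated libraries. The median log2 fold change of the 9 genes was 0.31 with DFC+BCI and 0.10 with all 3 drugs against untreated cells and 0.14 with all 3 drugs against imatinib, beside -0.03, -0.01 and 0.0044 over all genes. Imatinib alone changed 0 of the 9 genes by limma, where 2.11% of all genes passed, and 1 of the 9, Sat1, had an unadjusted p under 0.05, as did 1721 of all genes. All 3 drugs against DFC+BCI called 0 of the 9 genes by limma (0.114% of all genes, and 1 of the 9, the Amd1 row, at an unadjusted p under 0.05, as were 1053 of all genes), and leaving that row out the log2 fold changes ran between -0.13 (Azin1) and 0.08 (Oaz1). The interaction of imatinib and DFC+BCI also called 0 of the 9 genes by limma (0.149% of all genes, and 1 of the 9, Sat1, at an unadjusted p under 0.05, as were 1409 of all genes). In the groups with DFC+BCI, markers of other cell types moved too: the 8 neutrophil genes summed to 14642 to 15781 FPKM in the 4 libraries with DFC+BCI, against 25316 to 25985 FPKM with imatinib and 23614 to 24556 FPKM in untreated cells. With DFC+BCI against untreated cells 4 of the 8 (S100a8, S100a9, Ngp and Lcn2) were lower and 0 higher by limma. The 7 progenitor genes, such as Kit and Cd34, summed to 176 to 222 FPKM with DFC+BCI in any form, against 248 to 282 FPKM with imatinib and 242 to 294 FPKM in untreated cells. By limma 5 of the 7 were lower with DFC+BCI against untreated cells and 3 with all 3 drugs against imatinib, and 0 were higher. The 5 mast cell and basophil genes summed to 433 to 454 FPKM with DFC+BCI in any form, against 539 to 575 FPKM with imatinib and 508 to 532 FPKM in untreated cells, with 3 of 5 lower and 0 higher by limma with DFC+BCI against untreated cells. Their part in the changes of the polyamine genes was not tested.

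**Figure D3:**
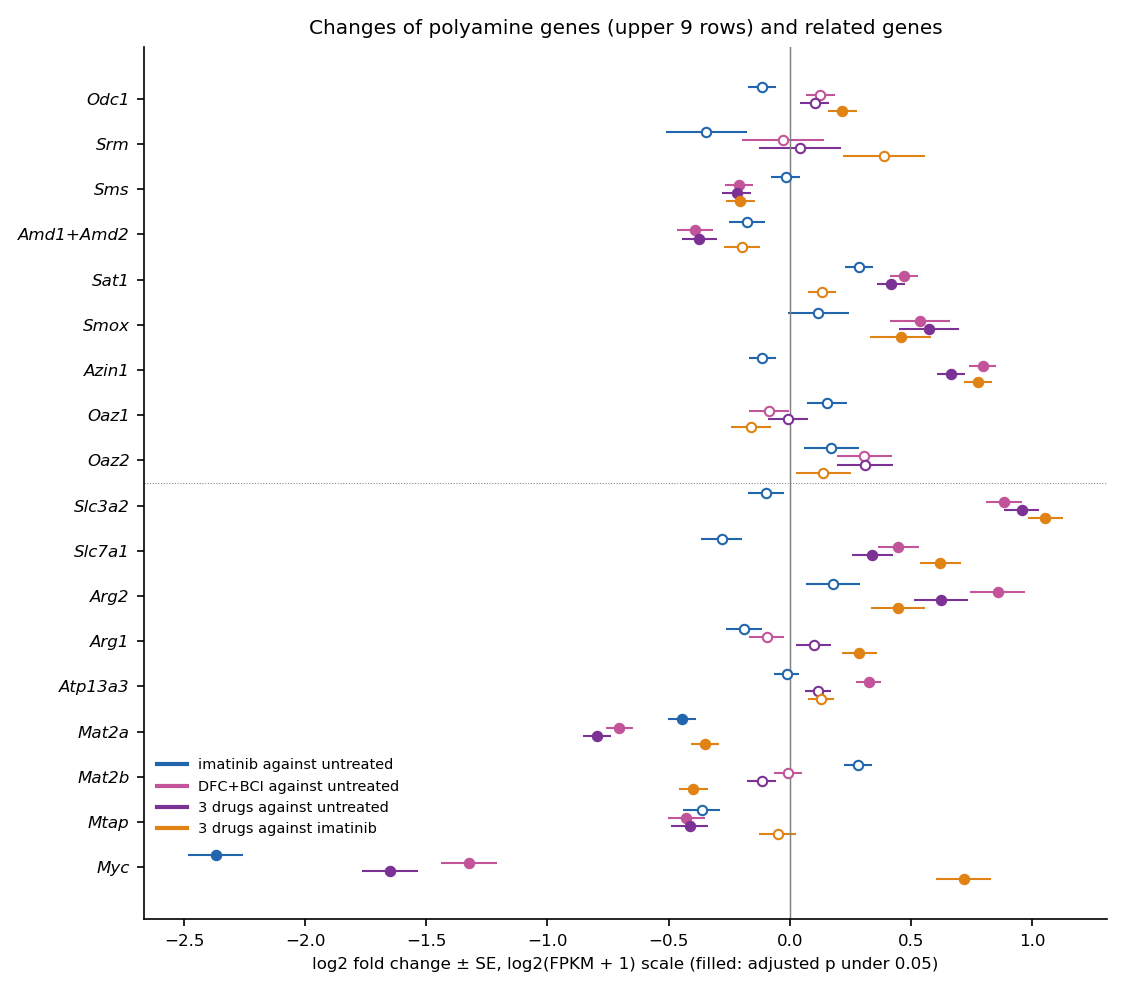
Log2 fold change (horizontal axis, log2(FPKM + 1) scale, with SE as bars) of the polyamine genes in the upper 9 rows and of related genes and Myc below, in 4 comparisons by colour, with filled points past an adjusted p of 0.05. Azin1 lies at 0.67 to 0.80 in the 3 comparisons with DFC+BCI and at -0.11 with imatinib alone.

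The difference between untreated BCR/ABL cells and the vector library was largest for Odc1, leaving aside the unstable Amd1 row. Without a p-value, a gene counts as past 2-fold when every pair of libraries differs by at least 1 on the log2 scale and the higher group averages at least 5 FPKM. Odc1 averaged 199 FPKM in untreated BCR/ABL cells against 46.7 FPKM in the vector library, 4.27-fold higher (log2 difference 2.07), and Srm averaged 124 FPKM against 44.7 FPKM, 2.78-fold higher (1.44). These 2 of the 9 genes were past 2-fold, both higher, beside 8.01% of all genes in either direction and 3.32% higher. Sms (log2 difference 0.74) and Azin1 (0.48) were higher by less, and Sat1 (-0.62), Oaz2 (-0.63), Smox (-0.48) and Oaz1 (-0.20) were lower in BCR/ABL cells. After 4 h of imatinib, Odc1 remained 3.95-fold higher than in the vector library (log2 difference 1.96) and was the 1 gene of the 9 past 2-fold, beside 6.97% of all genes in either direction and 2.53% higher. Srm stood at 1.10 in that comparison, past 2-fold only when imatinib library a was left out. Odc1 RNA per Oaz1 RNA, both in FPKM, was 0.672 and 0.556 with imatinib, 0.722 and 0.751 in untreated cells and 0.150 in the vector library. Cell type markers also set the vector library apart: the 8 neutrophil genes summed to 23614 to 24556 FPKM in untreated BCR/ABL cells against 3229 FPKM, the 5 mast cell and basophil genes to 508 to 532 FPKM against 1851 FPKM, the 6 of 7 listed monocyte and macrophage genes to 188 to 189 FPKM against 486 FPKM, the 7 erythroid genes to 212 to 217 FPKM against 4.82 FPKM, the 5 megakaryocyte genes to 663 to 729 FPKM against 544 FPKM, and the 7 progenitor genes to 242 to 294 FPKM against 431 FPKM. Counted past 2-fold, beside 8.01% of all genes, 6 of the 8 neutrophil genes were higher and 1, Mpo, lower (log2 difference -1.64). Among the monocyte and macrophage genes 4 were lower and 1, Mrc1, higher (1.23). All 5 mast cell and basophil genes and 3 progenitor genes were lower, and 2 erythroid genes higher, with 0 the other way. The megakaryocyte list had 2 lower and 0 higher. Its sum was higher through Pf4 (0.62), while the median of its genes was -0.89. With 1 vector library, BCR/ABL, cell makeup and the library itself cannot be told apart.

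The libraries labelled deleted were set beside wild-type BCR/ABL cells with the same drug. Without a drug, Srm was 48.9 FPKM in the library labelled deleted against 141 and 107 FPKM (log2 difference -1.31), and was the 1 gene of the 9 past 2-fold, beside 5.44% of all genes and 2.02% lower. Smox was close to that line (0.97), and it also passed, upward, after quantile normalization (1.07), after upper quartile scaling (1.09) and without untreated library a (1.06). Odc1 (-0.68) and Sms (-0.52) were lower and Azin1 (0.74) and Sat1 (0.58) higher. With imatinib in both, 0 of the 9 genes were past 2-fold, beside 3.16% of all genes, and the log2 differences kept their signs: Srm -0.90, Odc1 -0.42, Sms -0.43, Azin1 0.57, Smox 0.54 and Sat1 0.30. Srm was past 2-fold there without imatinib library a. Between the 2 libraries labelled deleted, imatinib against untreated, 0 of the 9 genes were past 2-fold, beside 0.376% of all genes. Under upper quartile scaling the median difference of all genes between the untreated library labelled deleted and untreated cells was -0.03 in place of -0.13, a shift of 0.104, and genes past 2-fold split into 503 higher and 171 lower in place of 391 and 231. The signs of Srm, Odc1, Sms, Azin1, Sat1 and Smox held under each scaling tried.

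The untreated library labelled deleted can be set beside the drug comparison that the study's aim names, both against the same untreated libraries, so a like sign in both is not independent. The log2 differences in the library labelled deleted and with DFC+BCI were 0.74 and 0.80 for Azin1, 0.58 and 0.47 for Sat1, 0.97 and 0.54 for Smox, and -0.52 and -0.21 for Sms. They were -0.68 and 0.13 for Odc1, -1.31 and -0.03 for Srm, -0.15 and -0.08 for Oaz1, and -0.12 and 0.31 for Oaz2. The difference between these effects was not tested, because 1 library carries the label without a drug. Azin1 over Oaz1, both in FPKM, was 0.312 and 0.293 with DFC+BCI, 0.255 and 0.268 with all 3 drugs and 0.304 in the untreated library labelled deleted, against 0.158 and 0.168 in untreated cells. In the imatinib-treated and untreated libraries labelled deleted the neutrophil genes summed to 15561 and 13819 FPKM, the mast cell and basophil genes to 118 and 85.2 FPKM and the monocyte and macrophage genes to 322 and 442 FPKM. The last list was split against wild-type BCR/ABL cells. Untreated, 3 of its genes were past 2-fold higher and 1, C1qb, lower (-1.22), beside 5.44% of all genes. With imatinib 2 were higher and 1, again C1qb, lower (-1.90), beside 3.16% of all genes. The part of these marker genes in the differences above was not tested.

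**Figure D4:**
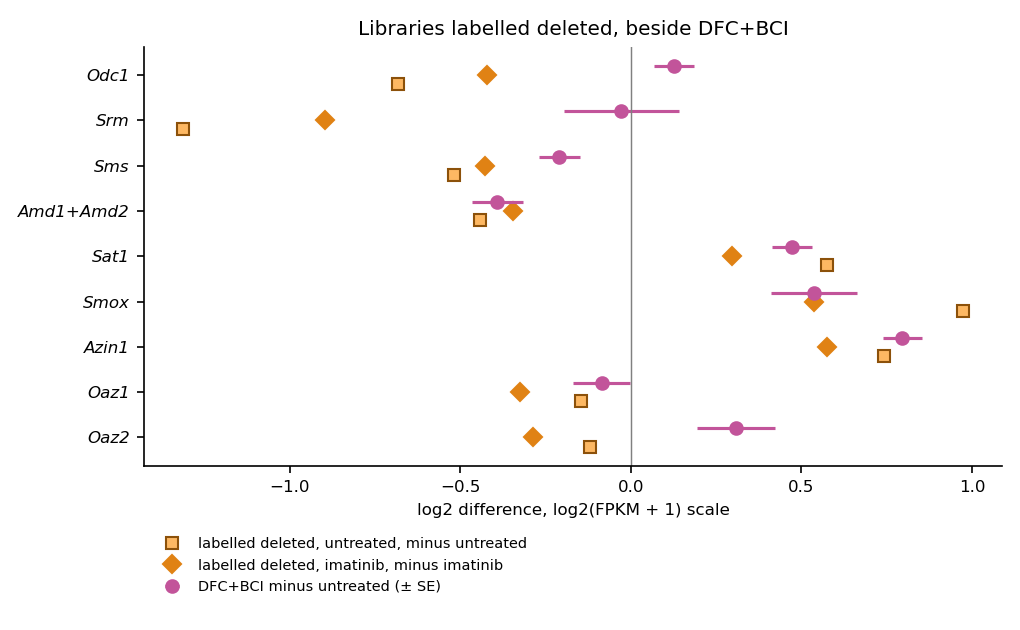
Log2 difference (horizontal axis, log2(FPKM + 1) scale) of each polyamine gene between libraries labelled deleted and wild-type BCR/ABL cells with the same treatment (squares untreated, diamonds imatinib, 1 library each, no error) and between DFC+BCI and untreated cells (circles, with SE). Odc1 and Srm lie to the left in the libraries labelled deleted, at -0.68 and -1.31 untreated, and near 0 with DFC+BCI, at 0.13 and -0.03.

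Myc fell with imatinib and with DFC+BCI. Odc1 passed in neither comparison, except with DFC+BCI after quantile normalization. Myc stood at 26.02 and 22.02 FPKM with all 3 drugs, 27.8 and 32.9 FPKM with DFC+BCI, 13.3 and 15.02 FPKM with imatinib, and 80.9 and 73.9 FPKM in untreated cells. With imatinib and untreated, the libraries labelled deleted had 6.76 and 35.7 FPKM, and the vector library had 51.5 FPKM, more than any drug-treated library. Myc fell by 2.37 on the log2 scale with imatinib (SE 0.114; limma adjusted p = 0.000254), where Odc1 gave -0.11, and by 1.32 with DFC+BCI (SE 0.114; limma adjusted p = 0.000235), where Odc1 gave 0.13. The vector library had Myc RNA at 51.5 FPKM with Odc1 at 46.7 FPKM, and imatinib library a had Myc at 13.3 FPKM with Odc1 at 190.1 FPKM. In the untreated library labelled deleted both were below untreated cells, with log2 differences of -1.09 for Myc and -0.68 for Odc1. Mycn, a relative of Myc, stood at 4.35 and 4.21 FPKM with imatinib, 9.71 and 7.26 FPKM in untreated cells and 1.27 FPKM in the vector library. Untreated BCR/ABL cells were past 2-fold above the vector library for Mycn (6.70-fold). Any part of Myc or Mycn in the Odc1 levels was not tested. Of 9 genes of the MYC and MAX family, 8 were tested. With DFC+BCI, beside 36.3% of all genes, Mxd1 (1.02, limma adjusted p = 9.9e-05) and Mnt (0.77, adjusted p = 0.0170) rose and Myc, Mxd4 (-0.47, adjusted p = 0.00674), Mxd3 (-0.65, adjusted p = 0.00779) and Mycn (-0.48, adjusted p = 0.0467) fell. With imatinib, beside 2.11% of all genes, Mxd1 rose (0.55, limma adjusted p = 0.0141) and Myc and Mycn (-0.83, adjusted p = 0.0463) fell. Mxd1 and Mnt, which rose with DFC+BCI, and Mxd3 and Mxd4, which fell, all encode repressors that compete with MYC for MAX.

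**Figure D5:**
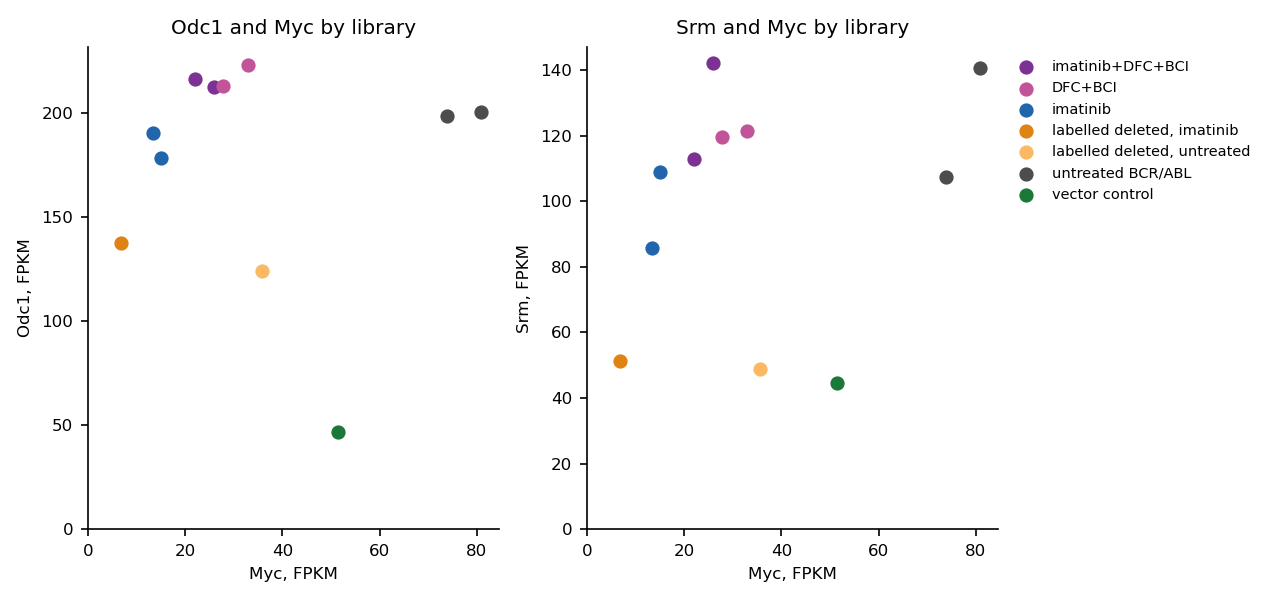
Odc1 (left) and Srm (right) in FPKM on the vertical axes against Myc in FPKM on the horizontal axes, 1 dot per library, coloured by group. Odc1 is at 178 to 223 FPKM in the wild-type BCR/ABL libraries, across Myc levels of 13.3 to 80.9 FPKM, and at 46.7 FPKM in the vector library at a Myc level of 51.5 FPKM.

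MYC with MAX binds the E-box CACGTG, which reads the same on both strands. Of the 7 members with a promoter window in the RefSeq table (250 bases before to 50 after the start site, GRCm38.p6), 1 held this motif, Sms, in 1 of its 2 windows, beside 7.15% of all 32851 windows. The members are counted by gene and the share by window, so the 2 are not like for like. The motif starts 196 bases before the start site of that window and is shown in capitals with its surroundings (minus strand, chrX:157492463-157492498).
Sms: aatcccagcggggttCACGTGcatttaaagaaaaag
No window of Odc1, Amd1, Sat1, Smox, Oaz1 or Oaz2 held these letters, and the E-boxes known from Odc1 lie in its first intron. The windows of Srm and Azin1 were not analysed here. The match is a description of the sequence, with no binding measured.

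Genes of the wider polyamine and methionine pathways were counted from a list of 23, of which 17 passed the filter. The list holds supply genes, breakdown genes such as Paox, and the Amd1 copy Amd2. With DFC+BCI, 4 rose and 2 fell against untreated cells, with all 3 drugs 3 rose and 2 fell, and with all 3 drugs against imatinib 4 rose and 2 fell, beside the 36.3%, 32.8% and 34.6% of all genes that passed. With imatinib alone 0 rose and 1 fell, beside 2.11% of all genes. The median log2 fold change of the 17 genes was -0.07, 0.10, 0.03 and -0.0026 in these 4 comparisons. Slc3a2, the heavy chain that partners amino acid transporters, had 249 and 245 FPKM with all 3 drugs, 236 and 233 FPKM with DFC+BCI, 115 and 121 FPKM with imatinib, and 135 and 119 FPKM in untreated cells. All 4 libraries with DFC+BCI lie far above the others, and the rise was 0.88 on the log2 scale with DFC+BCI and 0.96 with all 3 drugs against untreated cells and 1.06 with all 3 drugs against imatinib (SE 0.0734 each; limma adjusted p = 9.05e-05 to 0.000197). Slc7a1, a carrier of arginine and ornithine, rose by 0.45, 0.34 and 0.62 in those 3 comparisons (limma adjusted p = 0.00610, 0.0199 and 0.00162), the second being lost without all-3-drugs library a (adjusted p = 0.108) or untreated library b (adjusted p = 0.0887) and when only those groups were fitted (adjusted p = 0.0559).

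The arginase genes, whose products make ornithine from arginine, differed from each other. Arg2 had 10.8 and 12.6 FPKM with all 3 drugs, 14.97 and 12.9 FPKM with DFC+BCI, 8.94 and 7.70 FPKM with imatinib, and 6.84 and 7.62 FPKM in untreated cells, and it rose by 0.86 with DFC+BCI (limma adjusted p = 0.00140) and 0.62 with all 3 drugs (limma adjusted p = 0.00564) against untreated cells. Arg1 had 196 to 248 FPKM in all 8 wild-type BCR/ABL libraries, 234 and 427 FPKM in the imatinib-treated and untreated libraries labelled deleted, and 1.73 FPKM in the vector library. It passed once, at 0.29 for all 3 drugs against imatinib (limma adjusted p = 0.0211), and that call was lost without any one of the 4 libraries of the 2 groups (adjusted p = 0.0600 to 0.113) and under upper quartile scaling (adjusted p = 0.0554). Atp13a3, which encodes a polyamine transporter, rose by 0.33 with DFC+BCI (SE 0.0532, limma adjusted p = 0.00355), with 48.3 and 49.1 FPKM against 37.9 and 39.4 FPKM in untreated cells. With all 3 drugs it did not pass by limma, at 0.12 against untreated cells (adjusted p = 0.138) and 0.13 against imatinib (adjusted p = 0.103).

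Amd1 works on S-adenosylmethionine, and genes that make it or recycle its remains were also listed. Mat2a, which makes S-adenosylmethionine, had 73.0 and 76.0 FPKM with all 3 drugs, 80.7 and 78.1 FPKM with DFC+BCI, 94.5 and 95.8 FPKM with imatinib, and 126 and 133 FPKM in untreated cells. The groups do not overlap and stand in that order. Mat2a fell by 0.79 on the log2 scale with all 3 drugs (SE 0.0573; limma adjusted p = 9.88e-05), by 0.70 with DFC+BCI (limma adjusted p = 0.000179) and by 0.45 with imatinib (limma adjusted p = 0.0135) against untreated cells, the last lost without imatinib library a (adjusted p = 0.0999), imatinib library b (adjusted p = 0.0778) or untreated library b (adjusted p = 0.0710), after quantile normalization (adjusted p = 0.0582) and when only those groups were fitted (adjusted p = 0.158). Mtap, which recycles the sulphur by-product of spermidine and spermine synthesis, fell by 0.43 with DFC+BCI (limma adjusted p = 0.00494) and by 0.41 with all 3 drugs (limma adjusted p = 0.00615) against untreated cells, where it averaged 21.5 and 21.7 FPKM against 29.2 FPKM. Mat2b, the regulatory partner of Mat2a, fell by 0.40 with all 3 drugs against imatinib (limma adjusted p = 0.00236), with 30.9 and 29.3 FPKM against 39.3 and 40.7 FPKM. Against untreated cells Mat2b did not pass by limma. Its values there were -0.007 with DFC+BCI (adjusted p = 0.94), -0.12 with all 3 drugs (adjusted p = 0.178) and 0.28 with imatinib (adjusted p = 0.0662).

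Over the 11 libraries, levels of Odc1, Srm and Sms on the log2 scale ran together, with Pearson's r of 0.82 between Odc1 and Srm, 0.83 between Odc1 and Sms, and 0.79 between Srm and Sms. The unstable Amd1 row correlated less with them, at 0.32 with Odc1, 0.32 with Srm and 0.21 with Sms. Sat1 and Smox correlated at 0.81 with each other, and Sms correlated at -0.83 with Sat1 and -0.72 with Smox. Azin1 correlated at 0.64 with Smox and -0.75 with Oaz1. These values are descriptions over 11 libraries that share groups, with the vector library and the libraries labelled deleted at the extremes for several genes. Among 8009 genes with a mean of at least 5 FPKM, Odc1 was most like Psmc2 (r = 0.99), Stxbp5 (0.99) and H2-Q7 (0.99), Srm was most like Noc2l (0.99), Mybbp1a (0.98) and Prmt7 (0.98), and Sms was most like Chil3 (0.99), Tcp1 (0.99) and Ms4a3 (0.99). Genes most like Azin1 included Fndc3a (0.98) and Slc20a1 (0.98), Sat1 was most like Arid5b (0.98), Rgs2 (0.97) and Snx30 (0.96), and Smox was most like Plekho2 (0.97), Tfe3 (0.97) and Med15 (0.97). Oaz1 was most like Ppp1r35, Rmnd5b and Perp (0.91 each), Oaz2 most like Cdkn2d (0.96), Usp19 (0.95) and Ehmt1 (0.95), and genes most like the Amd1 row included Dnajc13 (0.85) and Zfp800 (0.80).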

How the data were processed

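Expression was measured by RNA sequencing in 11 libraries. The authors used TopHat, the mm10 build and Cufflinks, versions not stated, per the submitters' processing notes. The deposited values were taken as FPKM from their Cufflinks form, as no unit stands in the header. They were analysed as log2(FPKM + 1), a scale on which changes of low genes are understated. Of 23444 rows, 5019 were at 0 in all libraries and 27 had symbols turned into dates. The filter (1 FPKM or more in 2 or more libraries) left 11442 genes. All 11 libraries entered 1 limma-trend fit (limma 3.58.1, R 4.3.3; 4 residual and 3.2 prior degrees of freedom), 2-sided, with Benjamini-Hochberg adjustment over all genes and adjusted p under 0.05. An exact permutation of 2 against 2 cannot go below p = 0.333. Comparisons with 1 library in a group have no p. The fit was tested on simulated data. The polyamine genes and the lists of related genes and markers were chosen with earlier results of these data known. The genes named are the 9 polyamine genes, Myc, Fos, Dusp1 and Kit, related genes that passed any test at 5 FPKM or more, and the 3 genes most correlated with each polyamine gene, of which some are not reported here. Mxd1, Mnt, Oaz1-ps and other genes outside this rule were named after their values were seen. Doses are left out, their unit being doubtful. Alternatives were another pseudocount, other filters, quantile normalization, upper quartile scaling, a fit of the compared groups alone, summed Amd1 and Amd2, and leaving out each library.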

Additional observations from a re-analysis of the deposited data

Results flagged for a closer look

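For Myc, the effect of imatinib differed by the presence of DFC+BCI: the interaction was 2.04 on the log2 scale (SE 0.162; limma adjusted p = 0.0133), with log2 fold changes of -0.33 for all 3 drugs against DFC+BCI and -2.37 for imatinib against untreated cells. The call was lost with no filter (adjusted p = 0.0849) and without DFC+BCI library a (0.0683), imatinib library a (0.0525) or untreated library a (0.0641).

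Odc1 lay on opposite sides after imatinib in the libraries labelled deleted and in wild-type cells: the log2 difference was 0.15 between the libraries labelled deleted and -0.11 in wild-type BCR/ABL cells, a gap of 0.26 that was not tested. Oaz1 did so in the other sense, at -0.02 in the libraries labelled deleted and 0.15 in wild-type cells, a gap of -0.18 that was not tested. No group has the 4 libraries needed to look for a library far from its group.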

How the results depend on the processing

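Azin1 and Sat1 were called in 14 of 14 alternatives in each comparison with untreated cells that called them. Of the 9 genes, 2 to 4 passed with DFC+BCI and with all 3 drugs against untreated cells when 1 library was left out, and 1 to 4 with all 3 drugs against imatinib. In that last comparison 1 passed when only its groups were fitted. Sms against untreated cells also fell short after quantile normalization (adjusted p = 0.0730 and 0.0601) and upper quartile scaling (0.0666 and 0.0525). Over all genes, leaving out 1 library gave 55 to 112 calls for imatinib, 2134 to 3996 for DFC+BCI, 2317 to 3581 for all 3 drugs against untreated cells, 2559 to 4021 for all 3 drugs against imatinib, 1 to 7 for all 3 drugs against DFC+BCI and 2 to 12 for the interaction, against 241, 4148, 3754, 3955, 13 and 17 as reported. Fewer samples are fitted there. Imatinib called 122 genes with no filter and 27 with only its groups fitted, all 3 drugs against DFC+BCI called 7 with only those groups, and the interaction called 2 with no filter, 11 after quantile normalization and 11 after upper quartile scaling (8 higher and 3 lower, in place of 10 and 7). The cause was not tested. Members past 2-fold numbered 1 to 2 for imatinib against the vector library when 1 library was left out, 1 to 3 for the untreated library labelled deleted (2 after quantile normalization, 2 after upper quartile scaling) and 0 to 1 for the imatinib-treated one.

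Signs turned in values that were short of the test with all libraries. Leaving out 1 library at a time, the log2 fold changes with imatinib against untreated cells ran from -0.043 to 0.011 for Sms, -0.017 to 0.25 for Smox and -3.26 to 0.097 for the Amd1 row. With DFC+BCI they ran from -0.22 to 0.17 for Srm and -0.074 to 3.28 for the Amd1 row (adjusted p = 0.0481 at the upper end), and with all 3 drugs from -0.079 to 0.066 for Oaz1, -0.15 to 0.24 for Srm and -3.32 to 0.037 for the Amd1 row. The libraries at which these signs turned were untreated a or b, imatinib b and both all-3-drugs libraries. Sms with imatinib was 0.028 after quantile normalization and 0.018 after upper quartile scaling. Quantile normalization also gave 0.068 for Srm and 0.085 for Oaz1 with DFC+BCI, and 0.14 for Oaz1 with all 3 drugs. Summed with Amd2, Amd1 was -0.39 with DFC+BCI and passed (adjusted p = 0.0063). No paired analysis was possible because the columns carry letters or a repeated name and no replicate number. Depth is unknown, so no limit from counts can be given.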
